A study of Rattus norvegicus with 6 samples.

Results

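The nuclear-encoded respiratory chain genes described here are the protein-coding rows outside the mitochondrial chromosome whose symbols begin with Nduf followed by a, b, c, s or v, with Uqcr, with Cox and a digit from 4 to 8 or with Atp5, together with Sdha to Sdhd and Cyc1. The rule gave 94 genes of the 33565 rows of the table, 36 of complex I, 8 complex I assembly factors (the Ndufaf genes), 4 of complex II, 9 of complex III, 21 of complex IV and 16 of complex V. Ndufa4 and Ndufa4l2 were placed with complex IV, where the Ndufa4 protein is known to reside. The samples were primary heart muscle cells of Sprague-Dawley rats at postnatal day 7, cultured in medium with 10% fetal bovine serum. Progesterone at 100 nM was given for 24 h to 3 samples and vehicle alone to 3 control samples, and mRNA-enriched RNA was sequenced. Apart from the hormone, the labels give both groups the same culture, and do not say whether replicates came from separate animals or cultures, so the p-values rest on the variation among these 6 samples, part or all of which may be technical.

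The respiratory chain passes electrons from NADH through complex I, or from succinate through complex II, to coenzyme Q, and from there through complex III and cytochrome c to complex IV, which reduces oxygen. Complexes I, III and IV pump protons, and complex V, the ATP synthase, uses the resulting gradient to make ATP. Complex II is wholly nuclear-encoded, while the other complexes combine nuclear subunits with a few subunits made from mitochondrial DNA, and heart muscle is among the tissues richest in all of them.

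Libraries held 21156793 to 25376220 counts. Counts of the 94 genes made up 1.65, 1.70 and 1.71% of the progesterone libraries, against 1.56, 1.55 and 1.54% of the control libraries. Of the 94 genes, 89 had enough counts to be tested. Ndufa10l1, Cox6c-ps1, Cox7b2 and Cox8c had no count in any library, and Cox7a1, the heart and skeletal muscle isoform of subunit VIIa, had 5 counts in progesterone library 1 and 0 in the other 5 libraries. The 89 genes were well expressed, with a median of 128 CPM (counts scaled by library size and TMM factor) over the 6 libraries against 21.5 CPM for all genes tested.

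Most respiratory chain genes were slightly higher with progesterone. In edgeR's quasi-likelihood test with Benjamini-Hochberg adjustment over all 15075 genes tested, 62 of the 89 genes (69.7%) rose and 6 (6.74%) fell at an adjusted p under 0.05, while 21 did not pass. The background was high, since 63.0% of all genes tested passed, 31.2% in the higher and 31.8% in the lower direction. The changes were small. The median log2 fold change of progesterone over control was 0.20 for the 89 genes and 0.0033 for all genes tested, and the median absolute change was 0.22 for the 89 genes and 0.34 for all genes. Changes of 1.5-fold or more that also passed the test were seen in 4 higher genes (Ndufa1, Ndufa2, Cox4i2 and Cox6b2) and 2 lower genes (Cox8b and Ndufa4l2). These made up 6.74% of the 89, against 29.0% of all genes tested by the same 2 conditions. The 3 progesterone libraries were all above the 3 control libraries in 64 genes and all below in 7, against 33.8% above, 34.8% below and 68.6% in either direction among all genes tested. The shares of all genes tested given here are the background for the counts by complex and list below. The 6 lower genes were Ndufa8, Cox6a2, Cox8b, Ndufa4l2, Atp5f1b and Atp5if1. Upper quartile scaling, which moved the median of all genes by 0.0963 on the log2 scale, gave 74 higher and 5 lower genes, and its higher share of all calls was 60.1% against 49.6% with TMM.

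**Figure D1:**
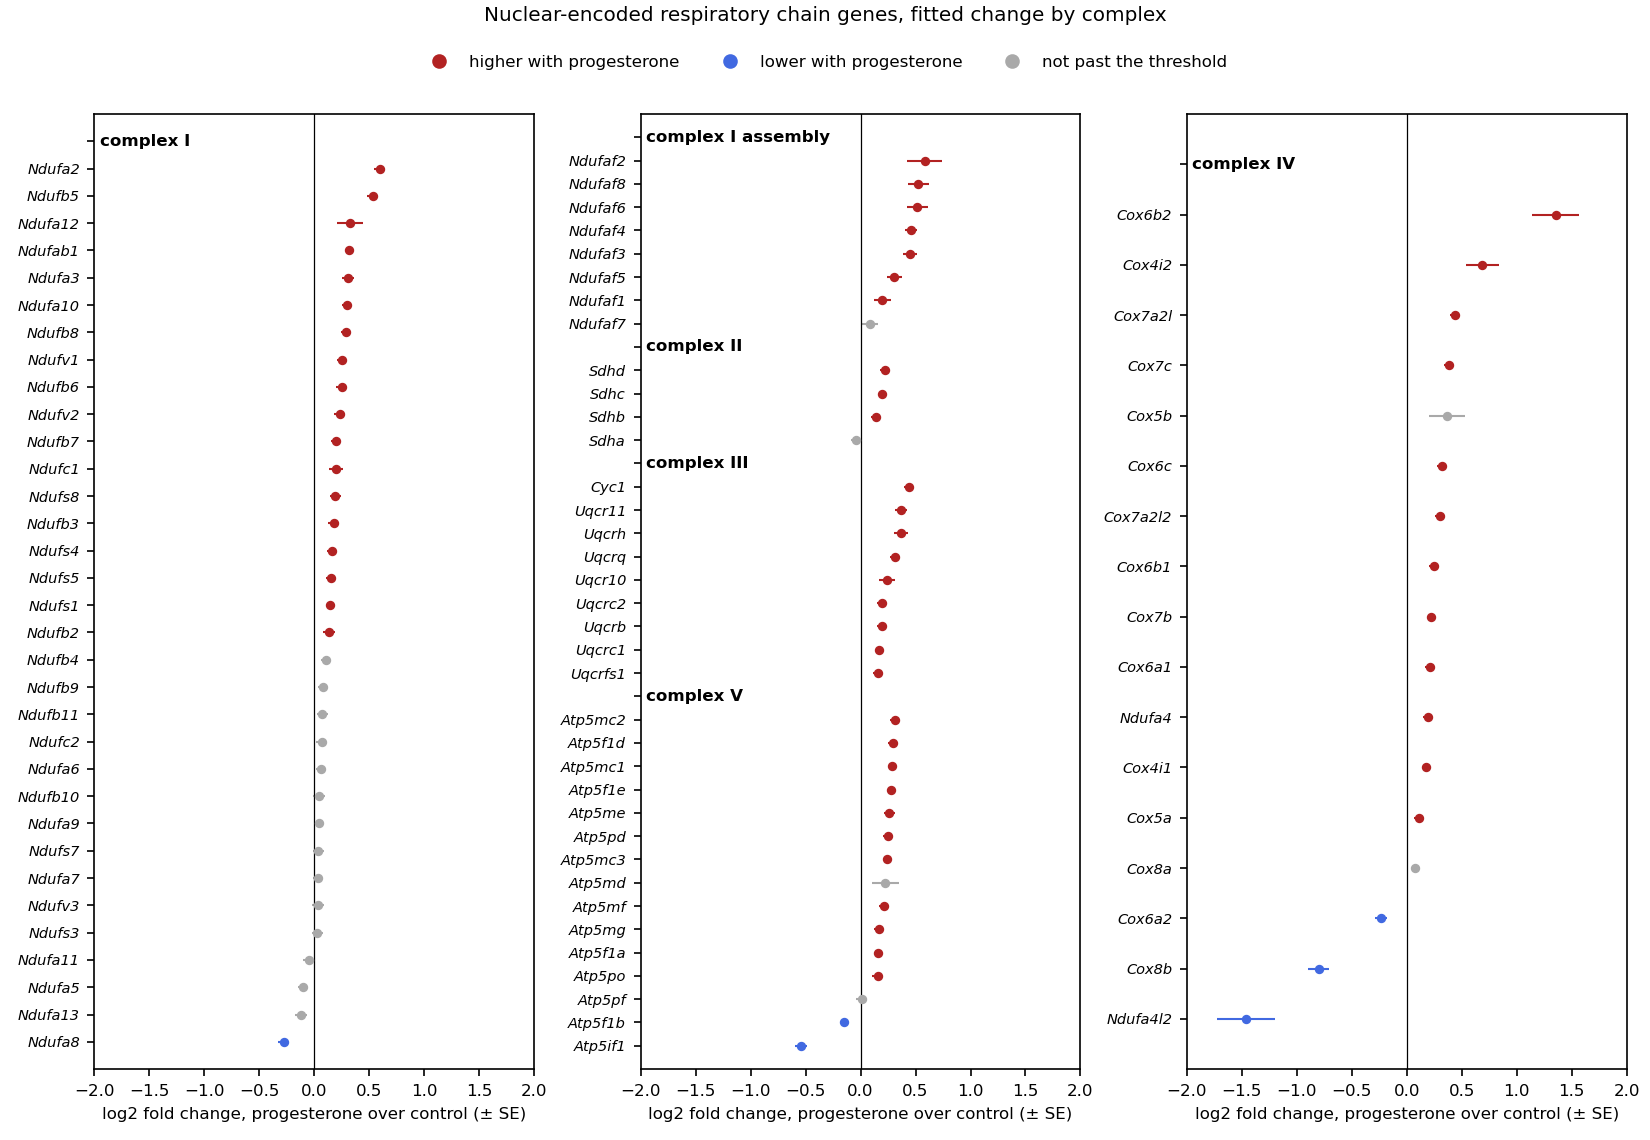
Fitted log2 fold change of progesterone over control (x axis, ± SE) of tested genes (rows), by complex, with 3 libraries per group and colour giving the call at an adjusted p under 0.05; Ndufa1 (5.04) and Atp5pb (1.97) lie outside the axis or have very wide errors and are not drawn. Most points sit between 0 and 0.6, all 9 complex III genes are higher, and Cox8b and Ndufa4l2 are the lowest.

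**Figure D2:**
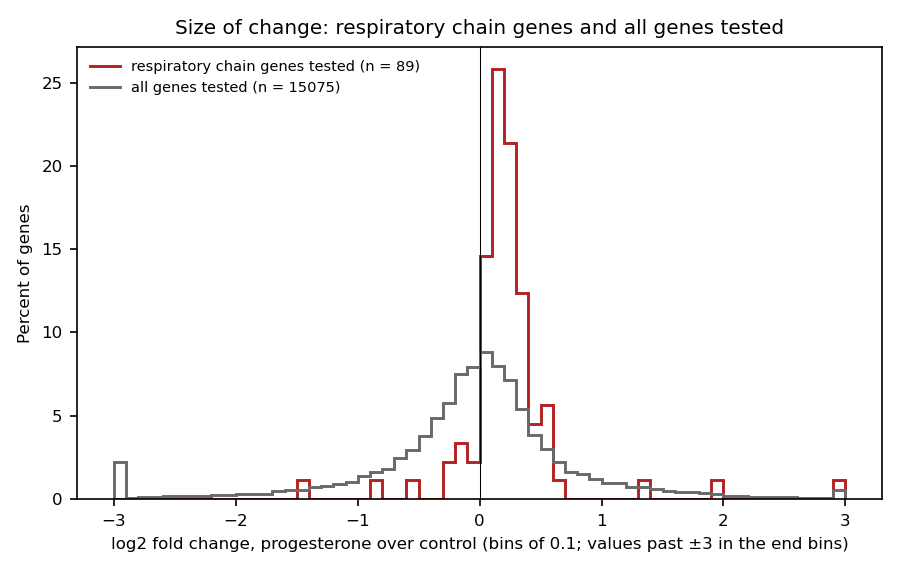
Percent of genes (y axis) by log2 fold change of progesterone over control (x axis, bins of 0.1, with values past 3 either way in the end bins) for the 89 respiratory chain genes and all 15075 genes tested. The respiratory chain genes form a narrow peak just above 0, with a median of 0.20.

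The promoter windows of 4 genes are shown as examples: Ndufaf8, Uqcrc1 and Atp5mc2, which rose, and Cox6a2, a muscle isoform, which fell. Each window runs 5′ to 3′ on the strand of the gene, from 250 bases before to 50 bases after the start in the RefSeq annotation of rat build GRCr8. Capitals mark matches, on either strand, to the motif letters CGCATGCG (NRF1), CCGGAAG (the ETS family, to which GABP belongs), AAGATGGCG (YY1) and TCAAGGTCA (ERR), all names of factors known to act on respiratory genes.
Ndufaf8, chr10:105879658-105879957, plus strand: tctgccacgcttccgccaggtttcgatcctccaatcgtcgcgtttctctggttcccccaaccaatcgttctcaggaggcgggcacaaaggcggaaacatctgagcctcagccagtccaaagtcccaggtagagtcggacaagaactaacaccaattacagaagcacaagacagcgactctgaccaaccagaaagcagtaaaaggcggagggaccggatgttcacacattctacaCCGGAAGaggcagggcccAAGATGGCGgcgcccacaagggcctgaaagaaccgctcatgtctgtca
Uqcrc1, chr8:118467973-118468272, plus strand: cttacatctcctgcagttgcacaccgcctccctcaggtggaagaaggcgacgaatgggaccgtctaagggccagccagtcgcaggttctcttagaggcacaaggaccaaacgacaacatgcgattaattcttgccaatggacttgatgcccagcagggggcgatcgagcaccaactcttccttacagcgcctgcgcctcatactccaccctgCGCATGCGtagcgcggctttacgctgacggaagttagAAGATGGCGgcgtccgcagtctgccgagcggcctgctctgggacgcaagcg
Atp5mc2, chr7:135678169-135678468, minus strand: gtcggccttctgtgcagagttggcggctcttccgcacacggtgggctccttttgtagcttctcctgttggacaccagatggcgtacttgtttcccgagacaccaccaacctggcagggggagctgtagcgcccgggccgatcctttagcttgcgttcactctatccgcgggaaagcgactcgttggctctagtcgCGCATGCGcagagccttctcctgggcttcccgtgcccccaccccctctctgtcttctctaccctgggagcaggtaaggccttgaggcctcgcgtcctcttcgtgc
Cox6a2, chr1:192219667-192219966, minus strand: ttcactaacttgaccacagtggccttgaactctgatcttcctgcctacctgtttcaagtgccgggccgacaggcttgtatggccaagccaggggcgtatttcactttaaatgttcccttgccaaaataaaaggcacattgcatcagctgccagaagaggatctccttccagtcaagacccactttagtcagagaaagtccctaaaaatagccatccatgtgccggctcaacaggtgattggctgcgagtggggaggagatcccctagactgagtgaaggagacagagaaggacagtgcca
The Ndufaf8 window holds an ETS and a YY1 match, the Uqcrc1 window an NRF1 and a YY1 match, the Atp5mc2 window an NRF1 match, and the Cox6a2 window none of the 4. Windows of other genes that rose, such as Ndufb5, Ndufab1 and Cox7c, also held none, so the examples do not stand for their groups. Windows were found for 81 of the 94 genes, and 34 of them held at least 1 of the 4 motifs. NRF1 letters stood in 9 windows (11.1%), against 2.11% of the 21838 windows of protein-coding rat genes and 1.66% of all 33465 rat windows. ETS letters stood in 22 windows (27.2%), against 10.7% of protein-coding and 8.74% of all windows. YY1 letters stood in 10 windows (12.3%), against 2.07% of protein-coding and 1.73% of all windows, and ERR letters in 2 (2.47%), against 0.366% of protein-coding and 0.433% of all windows. Among genes that rose, 16 of 53 windows held the ETS letters, 7 the NRF1 letters and 6 the YY1 letters. Among genes that did not pass the test, the counts were 6, 2 and 4 of 20 windows, and the 5 windows of genes that fell held none of the motifs. A match is a description of letters, not of binding.

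Complex I, the NADH dehydrogenase, was higher in 20 of 35 tested subunits (57.1%, background 31.2%) and lower in 1 (2.86%, background 31.8%). It had 14 subunits that did not pass. The median log2 fold change was 0.15, and the summed level was 3752 ± 118 CPM with progesterone and 3379 ± 60.8 CPM in control (SD, n = 3 each). By position in the complex, 6 of the 7 tested genes of the NADH-binding N module rose (median log2 fold change 0.23), 2 of 8 in the Q module that hands electrons to coenzyme Q (0.038), and 11 of 19 in the membrane arm (0.15), where 1 fell. This grouping was made after the values were seen, and no test compared the modules. Rows described as subunit S6 lie outside the selection and enter none of these counts. Among conserved core subunits, Ndufv1 (0.25), Ndufv2 (0.23), Ndufs8 (0.19) and Ndufs1 (0.14) rose. Ndufs3 and Ndufs7 did not pass, with log2 fold changes of 0.03 and 0.04.

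Ndufa2, a small accessory subunit of the N module, had 53.0, 56.2 and 54.6 CPM in progesterone libraries 1 to 3, against 36.1, 35.9 and 36.5 CPM in control libraries 1 to 3. The groups did not overlap and were tightly spaced, and the log2 fold change was 0.59 ± 0.05 (SE, adjusted p = 7.7e-08). Ndufb5, an accessory subunit of the membrane arm, had 105, 121 and 111 CPM with progesterone and 76.2, 79.6 and 78.0 CPM in control. Its progesterone libraries were all above the control libraries (log2 fold change 0.53 ± 0.05, adjusted p = 2.6e-07). Ndufab1, the mitochondrial acyl carrier protein that sits in both arms, had 151, 157 and 152 CPM with progesterone and 125, 123 and 120.2 CPM in control. The gap between the groups was wider than either group's range (log2 fold change 0.32 ± 0.04, adjusted p = 5.8e-06).

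Ndufa12, an accessory subunit of the peripheral arm, had 9.52, 11.4 and 10.4 CPM with progesterone and 8.47, 7.47 and 9.11 CPM in control. The groups lay close, with control library 3 just under progesterone library 1 (log2 fold change 0.32 ± 0.12, adjusted p = 0.026), and the call was lost without progesterone library 2 or 3 or control library 1 or 2 (adjusted p from 0.055 to 0.13). Ndufa8, an accessory subunit on the intermembrane space side, was the 1 complex I gene that fell. It had 66.6, 72.2 and 74.7 CPM with progesterone and 86.6, 89.6 and 83.0 CPM in control, with every progesterone library below every control library (log2 fold change -0.28 ± 0.05, adjusted p = 1.8e-04). The remaining 15 genes that rose had log2 fold changes from 0.13 (Ndufb2) to 0.31 (Ndufa3). The call of Ndufb2 was lost without progesterone library 2 or 3 or control library 1 or 3, those of Ndufb3 and Ndufs5 without control library 2, and that of Ndufc1 without control library 3. The 14 that did not pass ran from -0.12 to 0.10 (Ndufb4). Among them, Ndufa5 (-0.10) and Ndufa13 (-0.12) were the lowest (adjusted p = 0.057 for both), and both were called lower without control library 3 and with scaling by library size alone.

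Ndufa1, an accessory subunit that is essential for assembly of the membrane arm, had 2.04, 17.7 and 2.81 CPM in progesterone libraries 1 to 3, against 0.276, 0.343 and 0.0438 CPM in control libraries 1 to 3. Progesterone library 2 stood far above the other 5 libraries, and the control libraries held only a few counts each. The fitted log2 fold change of 5.04 ± 1.45 (adjusted p = 0.039) has a wide error, and the call was lost without progesterone library 3 or any 1 of the control libraries (adjusted p from 0.052 to 0.12). A row on the same chromosome, LOC108348144, is described as the same subunit and had 0.189, 0.141 and 0.779 CPM with progesterone and 0.236, 0.386 and 2.15 CPM in control, and the sum of both rows gave 2.79 ± 1.18 (adjusted p = 0.11). Reads of near-identical copies may be split between such rows, so the level of Ndufa1 is uncertain here.

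Complex I assembly factors, which help build the complex without staying in it, rose in 7 of the 8 Ndufaf genes (87.5%, background 31.2%). Their median log2 fold change was 0.45. Their summed level was 177 ± 1.77 CPM with progesterone and 137 ± 1.45 CPM in control (SD, n = 3 each). Ndufaf2, a relative of Ndufa12 that takes its place during assembly, had 4.83, 5.37 and 5.02 CPM with progesterone and 3.35, 3.82 and 2.98 CPM in control. The libraries were few in counts but did not overlap (log2 fold change 0.58 ± 0.16, adjusted p = 0.005). Ndufaf4, which acts on the Q module with Ndufaf3, had 48.8, 46.6 and 46.5 CPM with progesterone and 34.9, 32.9 and 35.4 CPM in control. Its groups were well apart (log2 fold change 0.46 ± 0.06, adjusted p = 3.4e-06).

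Ndufaf6, a factor of early assembly in human cells, had 14.4, 13.6 and 14.7 CPM with progesterone and 10.5, 10.1 and 9.15 CPM in control (log2 fold change 0.52 ± 0.10, adjusted p = 2.3e-04). Ndufaf8, the partner of Ndufaf5 in human cells, had 14.3, 14.9 and 15.8 CPM with progesterone and 10.9, 10.8 and 9.46 CPM in control (log2 fold change 0.53 ± 0.10, adjusted p = 1.9e-04). In both, every progesterone library was above every control library. Ndufaf3 (0.45) and Ndufaf5 (0.31) also rose, Ndufaf1 rose by 0.20 (adjusted p = 0.039), a call that was lost when any library other than control library 2 was left out (adjusted p from 0.062 to 0.13), and Ndufaf7, a methyltransferase, did not pass (0.08 ± 0.08). Of 9 further complex I assembly factors tested, 6 rose (66.7%, background 31.2%), 0 fell and 3 did not pass (median 0.25). Acad9 (0.43 ± 0.05) and Ecsit (0.33 ± 0.06), both parts of the complex that assembles the membrane arm, had the smallest adjusted p among these (4.5e-06 and 2.5e-04).

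Complex II, succinate dehydrogenase, was higher in 3 of its 4 subunits, and summed to 1008 ± 22.1 CPM with progesterone and 944 ± 9.96 CPM in control (SD, n = 3 each). Sdhd, a membrane anchor, had 201, 209 and 206 CPM with progesterone and 178, 170.5 and 181 CPM in control (log2 fold change 0.22 ± 0.04, adjusted p = 2.7e-04). Sdhc, the other anchor, had 229, 243 and 229 CPM with progesterone and 203, 206 and 202 CPM in control (log2 fold change 0.20 ± 0.04, adjusted p = 7.3e-04). Both anchors had all progesterone libraries above all control libraries. Sdhb, the iron-sulfur subunit, had 179, 179 and 184 CPM with progesterone and 170.3, 159 and 163 CPM in control, again without overlap and with a smaller difference (log2 fold change 0.14 ± 0.04, adjusted p = 0.0096), which did not pass without control library 2 (adjusted p = 0.068). Sdha, the flavoprotein that oxidises succinate, had 377, 397 and 391 CPM with progesterone and 393, 398 and 408 CPM in control. Its groups overlapped and it did not pass (log2 fold change -0.04 ± 0.04, adjusted p = 0.39), and under upper quartile scaling the value was 0.05. Of the complex II assembly factors, Sdhaf3 rose (0.67 ± 0.18, adjusted p = 0.0037), Sdhaf4 fell (-0.26 ± 0.10, adjusted p = 0.034) and 1 did not pass. Of the 3 tested, 33.3% rose and 33.3% fell, near the background of 31.2% and 31.8%.

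Complex III, the cytochrome bc1 complex, was higher in all 9 tested genes (background 31.2%), with no overlap between the groups in any (background 33.8%). Its summed level was 2108 ± 37.3 CPM with progesterone and 1748 ± 19.4 CPM in control (SD, n = 3 each), and the median log2 fold change was 0.24. Cyc1, cytochrome c1, which passes electrons to cytochrome c, had 420.5, 436 and 435 CPM in progesterone libraries 1 to 3, against 312, 323 and 319 CPM in control libraries 1 to 3. Every progesterone library lay above every control library, by a gap wider than either group's range (log2 fold change 0.44 ± 0.04, adjusted p = 1.3e-07). Uqcrh, the hinge protein that binds cytochrome c1, had 163, 198 and 193 CPM with progesterone and 146, 141 and 143 CPM in control. Progesterone library 1 was the closest to control (log2 fold change 0.37 ± 0.06, adjusted p = 2.6e-04).

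Uqcr11, a small accessory subunit, had 154, 145 and 154 CPM with progesterone and 119.7, 125 and 106 CPM in control (log2 fold change 0.37 ± 0.06, adjusted p = 4.1e-05). Uqcrq, another small subunit, had 224, 201 and 215 CPM with progesterone and 178, 169 and 167 CPM in control (log2 fold change 0.31 ± 0.05, adjusted p = 3.0e-05). Both were higher in all progesterone libraries. The 2 core proteins Uqcrc1 (0.17) and Uqcrc2 (0.19) and the Rieske iron-sulfur protein Uqcrfs1 (0.16) rose with smaller log2 fold changes than Cyc1, a difference between genes that was not tested, and Uqcr10, a small subunit, rose by 0.24. The row kept for Uqcrb, on chromosome 1 (94718402 to 94718876), is a single block of 475 bases without introns and rose by 0.19, whereas a second Uqcrb row on chromosome 7 (71264514 to 71269869) had 35.0, 38.7 and 35.0 CPM with progesterone and 34.6, 32.7 and 32.1 CPM in control and did not pass (0.13 ± 0.06, adjusted p = 0.086). Their sum rose by 0.17 ± 0.04 (adjusted p = 0.0020). Of 6 complex III assembly factors, 3 rose, 1 fell and 2 did not pass, with the largest changes in Lyrm7 (0.98) and Bcs1l (0.76), which insert the Rieske protein, and a lower value in Uqcc2 (-0.20).

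Complex IV, cytochrome c oxidase, was higher in 12 of 17 tested genes (70.6%, background 31.2%) and lower in 3 (17.6%, background 31.8%). It had 2 genes that did not pass. Its summed level was 3396 ± 86.2 CPM with progesterone and 2989 ± 54.3 CPM in control (SD, n = 3 each), and the median log2 fold change was 0.22. The complex contains subunits with tissue isoforms, and these moved in both directions, while 4 of their 5 widely expressed partners rose slightly and Cox8a did not pass. The muscle isoforms Cox6a2 and Cox8b and the paralog Ndufa4l2 fell, and Cox4i2 and Cox6b2, isoforms known from lung and testis, rose at low levels.

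Cox6a2, the heart and skeletal muscle isoform of subunit VIa, had 248, 279.6 and 269 CPM in progesterone libraries 1 to 3, against 324, 295 and 317 CPM in control libraries 1 to 3. Every progesterone library was below every control library (log2 fold change -0.23 ± 0.05, adjusted p = 9.1e-04). Cox6a1, its widely expressed partner, had 431, 446 and 462 CPM with progesterone and 394, 392 and 369 CPM in control, in the opposite order and again without overlap (log2 fold change 0.21 ± 0.04, adjusted p = 5.4e-04). In FPKM, which accounts for gene length, Cox6a2 made up 40.7 ± 1.1% of the Cox6a1 and Cox6a2 sum with progesterone and 48.4 ± 1.7% in control (SD, n = 3 each).

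Cox8b, the muscle isoform of subunit VIII in rodents, had 9.28, 9.79 and 10.1 CPM with progesterone and 15.1, 17.9 and 17.9 CPM in control. No progesterone library reached a control library (log2 fold change -0.80 ± 0.10, adjusted p = 3.0e-06). Cox8a, the widely expressed partner, had 299, 301 and 303 CPM with progesterone and 296, 285 and 274 CPM in control. The groups did not overlap but it did not pass the test (log2 fold change 0.08 ± 0.04, adjusted p = 0.12). Cox8b was 4.78 ± 0.17% of the pair's FPKM with progesterone and 8.48 ± 1.00% in control (SD, n = 3 each).

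Ndufa4l2, a paralog of Ndufa4 known to be induced by low oxygen, had 0.758, 1.37 and 1.21 CPM with progesterone and 3.27, 2.28 and 3.68 CPM in control. All progesterone libraries were below all control libraries (log2 fold change -1.46 ± 0.26, adjusted p = 1.6e-04). Ndufa4 itself had 239, 249 and 221 CPM with progesterone and 207, 201 and 211 CPM in control and rose (log2 fold change 0.20 ± 0.05, adjusted p = 0.0021). Cox4i2, the isoform of subunit IV that is prominent in lung, had 9.05, 10.4 and 7.97 CPM with progesterone and 6.50, 4.55 and 5.95 CPM in control. Its libraries were separated but spread widely (log2 fold change 0.69 ± 0.15, adjusted p = 9.8e-04). Cox4i1, the common isoform, had 478, 466 and 492 CPM with progesterone and 432, 416 and 425 CPM in control (log2 fold change 0.18 ± 0.04, adjusted p = 0.0015). Cox4i2 was 1.31 ± 0.21% of the pair's FPKM with progesterone and 0.916 ± 0.145% in control (SD, n = 3 each).

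Cox6b2, the testis isoform of subunit VIb, had 4.40, 3.53 and 3.51 CPM with progesterone and 1.22, 1.80 and 1.44 CPM in control. The progesterone libraries were all above the control libraries (log2 fold change 1.36 ± 0.21, adjusted p = 4.5e-05). Cox6b1, its common partner, had 246, 269 and 255 CPM with progesterone and 223, 212 and 215 CPM in control (log2 fold change 0.25 ± 0.04, adjusted p = 1.8e-04), without overlap. A second Cox6b1 row on chromosome 2, a single block without introns, rose by 0.24 ± 0.08 (adjusted p = 0.011). Cox6b2 was 1.87 ± 0.32% of the pair's FPKM with progesterone and 0.875 ± 0.191% in control (SD, n = 3 each). No row under the symbol Cox7a2, the common partner of Cox7a1, met the rule, so Cox7a2 was not analysed here.

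**Figure D3:**
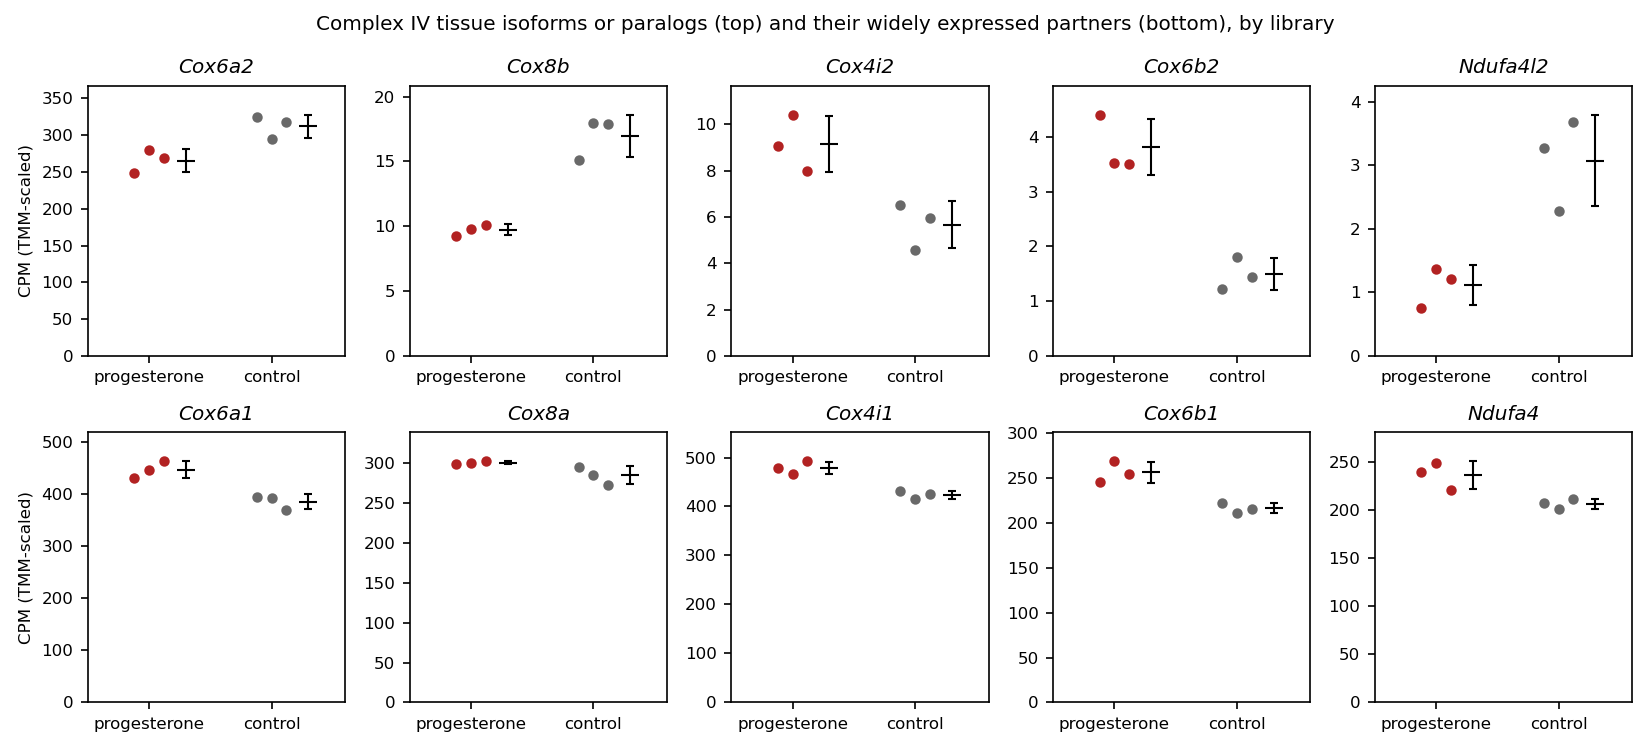
Expression in CPM (y axis, from 0 in each panel) of 5 tissue isoforms or paralogs of complex IV (top) and their common partners (bottom) in 3 progesterone and 3 control libraries (points; bars give mean ± SD). Cox6a2, Cox8b and Ndufa4l2 sit lower with progesterone, Cox4i2 and Cox6b2 higher, and the partners in the lower row are slightly higher with progesterone, although Cox8a did not pass the test.

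Cox7a2l, a protein that joins complexes III and IV into supercomplexes, had 184, 187 and 179 CPM in progesterone libraries 1 to 3, against 137, 133 and 136 CPM in control libraries 1 to 3. The groups were far apart for their spread (log2 fold change 0.44 ± 0.04, adjusted p = 1.6e-07). Cox7c, a small subunit, had 219, 220.1 and 227 CPM with progesterone and 175, 175 and 160.2 CPM in control, also without overlap (log2 fold change 0.38 ± 0.05, adjusted p = 2.3e-06). The other genes that rose were Cox6c (0.32), Cox7a2l2 (0.30), Cox7b (0.22) and Cox5a (0.11), the last with a call lost without progesterone library 2 or 3 or control library 2 or 3 (adjusted p from 0.075 to 0.15). Cox5b had 155, 189.9 and 203 CPM with progesterone and 126, 168 and 132 CPM in control, with control library 2 inside the progesterone range. It did not pass (log2 fold change 0.37 ± 0.17, adjusted p = 0.12), and without control library 2 it was called higher at 0.50 (adjusted p = 0.014). Complex IV assembly factors rose in 8 (36.4%, background 31.2%), fell in 3 (13.6%, background 31.8%) and did not pass in 11 of 22. Cmc2 (1.04) and Cox19 (0.28) were higher, and Cox16 (-0.70) and Coa7 (-0.46) lower.

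Complex V, the ATP synthase, was higher in 11 of 16 genes (68.8%, background 31.2%) and lower in 2 (12.5%, background 31.8%). It had 3 genes that did not pass. Its summed level was 6515 ± 165 CPM with progesterone and 6221 ± 40.1 CPM in control (SD, n = 3 each), with a median log2 fold change of 0.23. All 3 genes for subunit c, which make the same mature protein of the rotating ring, rose. So did the 2 central stalk genes in the selection, Atp5f1d and Atp5f1e, whereas the gamma subunit of that stalk was not among the 16 genes. The peripheral stalk rose in 2 of 4 genes and the small membrane subunits in 3 of 4, and the 2 genes of the catalytic head moved in opposite directions. These groups were named after the values were seen.

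Atp5mc2, of subunit c, had 281, 301 and 289 CPM with progesterone and 237, 232 and 232 CPM in control (log2 fold change 0.31 ± 0.04, adjusted p = 8.3e-06). Atp5mc1, the second gene for subunit c, had 192, 193 and 189.7 CPM with progesterone and 157, 161 and 153 CPM in control (log2 fold change 0.29 ± 0.04, adjusted p = 1.5e-05). Both were well separated between the groups. Atp5f1d, the delta subunit of the central stalk, had 339, 356 and 353 CPM with progesterone and 294, 269 and 289.7 CPM in control (log2 fold change 0.30 ± 0.04, adjusted p = 2.9e-05). Atp5f1e, the epsilon subunit, had 138, 133 and 144 CPM with progesterone and 117, 113 and 112 CPM in control (log2 fold change 0.28 ± 0.04, adjusted p = 3.9e-05). Neither of these central stalk genes had overlapping groups.

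Atp5f1b, the beta subunit that carries the catalytic sites, was the most abundant of the 94 genes per length, at 1168 ± 37.5 FPKM with progesterone and 1296 ± 17.2 FPKM in control (SD, n = 3 each). Its level was 2007, 2145 and 2089.6 CPM with progesterone and 2298, 2343 and 2280.0 CPM in control, with every progesterone library below every control library (log2 fold change -0.15 ± 0.04, adjusted p = 0.0055), and it did not pass under upper quartile scaling, where it was -0.05 (adjusted p = 0.27). Atp5f1a, the alpha subunit beside it in the catalytic head, rose by 0.16. Atp5if1, the inhibitor that keeps the enzyme from hydrolysing ATP, had 118, 119 and 122 CPM with progesterone and 191, 164 and 168 CPM in control. The control libraries were spread but all above the progesterone libraries (log2 fold change -0.54 ± 0.05, adjusted p = 4.5e-07). Atp5mc3, the last gene for subunit c, rose by 0.24, Atp5pd of the peripheral stalk by 0.25, and the small membrane subunits Atp5me, Atp5mf and Atp5mg by 0.26, 0.21 and 0.16. Atp5po, also of the peripheral stalk, rose by 0.16, but not without progesterone library 2 or control library 2 (adjusted p of 0.053 and 0.069). Atp5pf, a subunit of the peripheral stalk, did not pass (0.01 ± 0.05, adjusted p = 0.88), and the row of Atp5md, a single block without introns, did not pass (0.23 ± 0.12). Among complex V assembly factors, Tmem70 (0.46) and Atpaf1 (0.28) rose, Tmem242 (-0.37) and Atpaf2 (-0.27) fell, and 1 of 5 did not pass. The share was 40.0% in each direction (background 31.2% higher and 31.8% lower).

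Atp5pb, subunit b of the peripheral stalk, could not be placed. It had 3.17, 1.41 and 45.4 CPM in progesterone libraries 1 to 3, against 1.30, 1.76 and 9.85 CPM in control libraries 1 to 3, so that progesterone library 3 and control library 3 stood above the rest of their groups. The log2 fold change was 1.97 ± 1.70 (adjusted p = 0.38) and turned to -0.90 without progesterone library 3. A neighbouring row on chromosome 2, LOC100911417, is described as the same subunit and had 5.73, 4.94 and 4.29 CPM with progesterone and 3.46, 5.54 and 11.7 CPM in control, and the summed rows gave 0.97 ± 1.13 (adjusted p = 0.51).

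**Figure D4:**
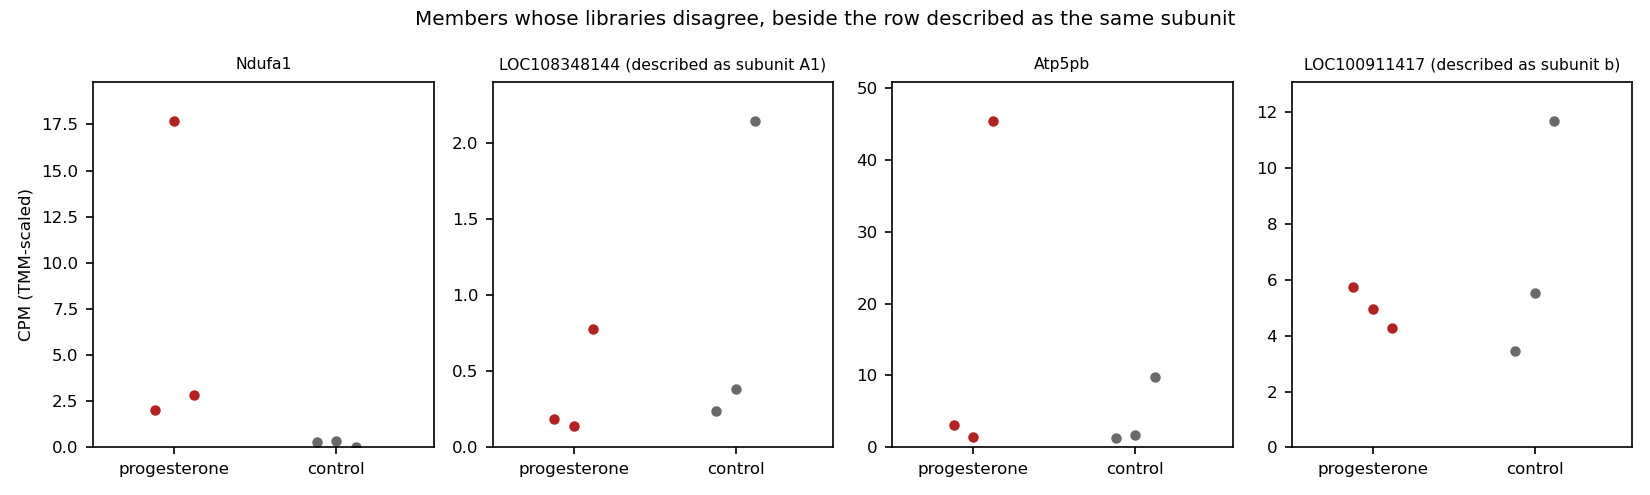
Expression in CPM (y axis, from 0, a scale of its own in each panel) of Ndufa1 and Atp5pb, each beside the row described as the same subunit, in 3 progesterone and 3 control libraries (points). A single progesterone library stands far above the others in Ndufa1 (17.7 CPM) and in Atp5pb (45.4 CPM).

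Subunits made from mitochondrial DNA also rose, in the same libraries and with larger fitted values. Of 13 mitochondrially encoded subunits, 12 rose and 0 fell, at a median of 1.17 on the log2 scale, and the difference from the nuclear genes was not tested. Mt-cyb of complex III rose by 1.65 and Mt-nd4l of complex I by 1.52. The ratio of summed mitochondrial to summed nuclear subunit FPKM was 3.25 ± 0.08 with progesterone and 1.68 ± 0.08 in control for complex I, 3.34 ± 0.06 with progesterone and 1.30 ± 0.06 in control for complex III, 4.28 ± 0.02 with progesterone and 2.78 ± 0.07 in control for complex IV, and 1.10 ± 0.02 with progesterone and 0.449 ± 0.014 in control for complex V (SD, n = 3 each). The libraries differed in mitochondrial RNA as a whole, with mitochondrial mRNA at 5.48 to 5.74% of counts with progesterone and 2.90 to 2.98% in control, and mitochondrial ribosomal RNA at 0.142 to 0.169% with progesterone and 0.769 to 0.807% in control. Without the mitochondrial genes and the genes lowered at least 4-fold, 59 of the 89 tested respiratory chain genes rose and 8 fell. Of all 14496 genes in that fit, 30.6% rose and 30.8% fell.

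**Figure D5:**
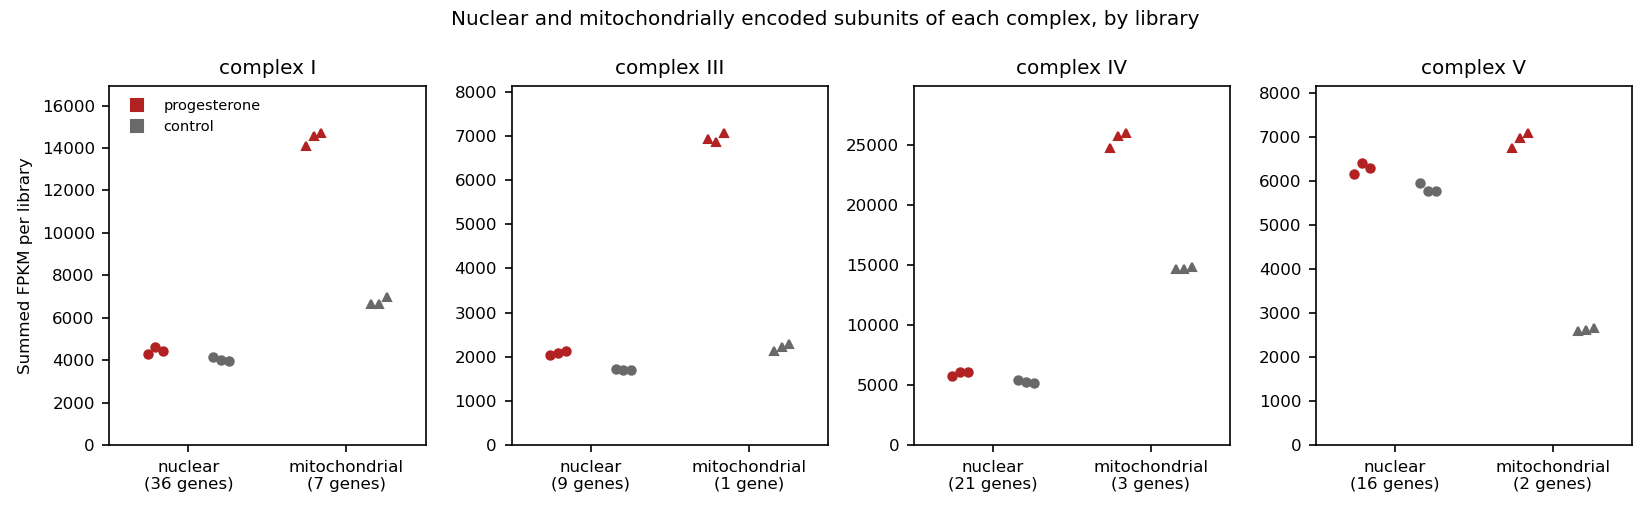
Summed FPKM per library (y axis, from 0) of the nuclear and the mitochondrially encoded subunits of complexes I, III, IV and V, in 3 progesterone and 3 control libraries (points). Mitochondrial sums are well above control in every progesterone library. Nuclear sums are also above control in every progesterone library, by less, and the ratio of mitochondrial to nuclear subunits is higher with progesterone in all 4 complexes.

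Genes that serve the chain moved both ways, as did all genes tested, of which 31.2% rose and 31.8% fell. Among 18 electron carrier and coenzyme Q synthesis genes, 7 rose (38.9%), 3 fell (16.7%) and 8 did not pass (median 0.11). Coq7 (0.76) and Pdss1 (0.88), of coenzyme Q synthesis, rose, the kinase-like proteins Coq8a (-0.83) and Coq8b (-0.25) fell, and Cycs, cytochrome c, did not pass (0.00 ± 0.08). Among 20 regulators of respiratory genes, 10 rose, 7 fell and 3 did not pass (median 0.08). The coactivators Pprc1 (0.59) and Ppargc1b (0.40) rose, and the nuclear receptor Ppard (-0.86) and the muscle regulator Perm1 (-0.78) fell.

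Of the factors whose motif letters were searched, Nrf1 (0.26) and Gabpa (0.27) rose, Yy1 fell (-0.16), and Esrra, an estrogen-related receptor, did not pass (-0.04 ± 0.05). Of 10 carrier and creatine kinase genes, 6 rose and 2 fell, with Ckmt1 (1.09) and Ckb (0.87) higher and Vdac3 (-0.26) and Ckmt2 (-0.95), the muscle mitochondrial creatine kinase, lower. Of 11 genes of the MICOS complex and cristae, which shape the inner membrane, 7 rose (63.6%) and 2 fell (18.2%). Micos10 (0.46) and Chchd6 (0.49) were higher, and Apool (-0.44) and Micos13 (-0.11) lower.

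Markers of the cells in the culture moved in both directions, against a background in which 63.0% of all genes tested passed (31.2% higher, 31.8% lower). Calls within a marker list are therefore not by themselves a sign of a difference in cell types. In bulk RNA, fewer cells of a type and less RNA per cell cannot be told apart. Cardiomyocyte markers were present in every library, with 5 of 12 higher and 4 lower and summed levels of 20552 to 23450 CPM with progesterone and 18874 to 19310 CPM in control. Actc1 (0.70) and Actn2 (0.30) rose, and Tnnt2 (-0.29) and Myh6 (-0.33) fell. The difference in the summed level lay largely in Actc1, with a mean of 7514 CPM with progesterone and 4627 CPM in control. The median log2 fold change of the 12 markers was 0.08. Fibroblast markers, 5 of 9 higher and 3 lower, summed to 36946 to 39905 CPM with progesterone and 27513 to 28605 CPM in control. Col3a1 (1.07) and Tcf21 (0.36) were higher, and Ddr2 (-0.69) and Dcn (-1.15) lower. Most of the difference in the fibroblast sum lay in Col3a1, with a mean of 13735 CPM with progesterone and 6556 CPM in control. Smooth muscle and pericyte markers, 9 of 10 higher and 1 lower, summed to 6621 to 7104 CPM with progesterone and 3482 to 3960 CPM in control, with Itga8 (1.91) and Mylk (1.10) higher and Des lower (-0.23). Leukocyte markers, 6 of 8 tested higher and 1 lower, summed to 160 to 183 CPM with progesterone and 32.9 to 53.3 CPM in control, with Csf1r (2.30) and Mrc1 (1.88) higher and Cd74 (-2.95) lower. Endothelial markers, 3 of 9 higher and 3 lower, were near the background in each direction. They summed to 139 to 184 CPM with progesterone and 164 to 213 CPM in control. Flt1 (1.04) and Vwf (0.46) were higher, and Tek (-1.85) and Emcn (-0.97) lower. Erythroid markers were low, at 5.16 to 6.88 CPM with progesterone and 5.59 to 10.1 CPM in control, with Hbb at 0 in every library and Slc4a1 lower (-2.78). The part of these marker differences in the respiratory chain values was not tested.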

How the data were processed

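mRNA-enriched RNA of 6 libraries, 3 progesterone and 3 control by their titles, was sequenced after preparation with the TruSeq kit, per the labels' protocols; its strand setting is not stated there. Bowtie 0.12.2 and mm8, a mouse build, are named in the submitters' processing notes, whereas the rows have rat Ensembl identifiers, and the rat build behind the table's coordinates was not given in the sources used here. Whole-number read counts, not normalized, are what the authors deposited for each gene. The FPKM values the authors deposited are scaled by gene length and library total, the divisor implied by counts and lengths being 98.8 to 101.6% of the count total. Rows without a gene name (682) held 0.844% of progesterone and 0.888% of control counts and were kept.

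Of several rows with a symbol, which 3 members had, the one with the highest total count was used. The count test was that of edgeR 4.0.16, run in R 4.3.3 (genes kept by filterByExpr at min.count 10 and min.total.count 15, then TMM, robust glmQLFit and glmQLFTest, Benjamini-Hochberg adjustment over all genes tested at 0.05). The SE was derived from the F statistic. CPM values are TMM-scaled, and precision is limited by the 3 libraries per group. The script was tested on simulated data with far fewer changed genes than here, so that test does not cover the scaling in these data. Pearson correlations of log2 CPM ran from 0.988 to 0.990 among replicates and from 0.905 to 0.914 across groups; the counts of replicate pairs differed beyond sampling noise (chi-square divided by its degrees of freedom, 5.39 to 9.33).

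The members and lists were chosen with earlier results of these data known, and the grouping of complexes I and V by position was made after the values were seen. Values in every library are given for up to 4 members per complex and direction with the largest called change, and for Cyc1, the Sdh genes, Ndufa4, Ndufa4l2, Ndufab1, Cox7a2l, Atp5if1 and the isoform pairs of complex IV. Of other lists, up to 2 genes per direction with the smallest adjusted p are named, and the motif factors, Cycs, rows that lost calls and rows with unequal libraries were added after their values were seen. The values of 1 member are counted but not reported here. Promoter sequences are from RefSeq (GRCr8), matched for 80 members by symbol and 1 by synonym. Alternatives were other scalings and filters, DESeq2 1.42.0, limma 3.58.1 on log2(FPKM + 1) and log2(FPKM + 0.1), the replicate number as a block, summed rows per symbol, a fit without mitochondrial and 4-fold lowered genes, each library left out in turn, and, chosen after seeing the data, summed rows of the same subunit.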

Additional observations from a re-analysis of the deposited data

How the results depend on the processing

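The counts of 62 higher and 6 lower members ran from 58 to 74 higher and from 5 to 8 lower over the other settings with all libraries, and from 56 to 62 higher and from 6 to 8 lower with 1 library left out. No called member swapped direction under any of these. With RLE scaling, the 1 CPM filter or summed rows per symbol the counts were 62 and 6, with DESeq2 59 and 6, with limma on either FPKM scale 63 and 6, and with summed rows of the same subunit 61 and 6. Complex I had 3 lower members with scaling by library size alone, with no filter and without the mitochondrial and 4-fold lowered genes, against 1 in the main result, and 1 to 3 with 1 library left out, the added ones being Ndufa5 and Ndufa13. With no filter 22420 genes entered the test. Complex V had 1 lower member under upper quartile scaling, where Atp5f1b was -0.05. Sdha, at -0.04 with TMM, turned to 0.055 under upper quartile scaling. Atp5pb ran from -0.90 (without progesterone library 3) to 3.45 (without control library 3) with 1 library left out. The cause of these changes was not tested. No sign of pairing by replicate number was seen, with correlations of same-numbered deviations of 0.0492, 0.0180 and -0.000936. These values cannot exclude a shared origin of same-numbered samples, which the labels do not give. With the replicate number as a block, 63 members were higher and 6 lower. Low counts limit Ndufa1, Ndufa4l2, Cox6b2 and Ndufaf2, and, outside the members, Ckmt2.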

Other observations

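Rows outside the selection are described as complex I subunit S6. LOC100912599 had 138, 127 and 18 counts in progesterone libraries 1 to 3, against 725, 316 and 843 counts in control libraries 1 to 3, all progesterone libraries being lower. It was called lower in edgeR's quasi-likelihood test, near the threshold and with a wide error (log2 fold change -2.59 ± 0.81, adjusted p = 0.0496). LOC679739 had 15, 18 and 35 counts with progesterone and 14, 8 and 10 counts in control, and the same test called it higher at these low counts (1.20 ± 0.38, adjusted p = 0.012). Surf1, a complex IV assembly factor, had 12, 6 and 5 counts with progesterone and 9, 12 and 462 counts in control, so that a single control library held most of its counts, and it did not pass the test (adjusted p = 0.16 with edgeR's quasi-likelihood test). These rows were singled out after their values were seen.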
